A study of Homo sapiens with 6 samples.

Results

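The 10 genes ZEB1, ZEB2, SNAI1, SNAI2, TWIST1, TWIST2, VIM, CDH2, CDH1 and EPCAM were examined for chromatin accessibility in NCI-H1703, an established cell line from human lung squamous cell carcinoma. They were chosen by name as the main transcription factors, cadherins and state markers of the epithelial-mesenchymal transition, and all 10 were found among 20037 protein-coding genes of the chromosomes. Each gene was studied in a window made of its GRCh38 span plus 20 kb on either side. Accessibility was measured by ATAC-seq, in which a transposase cuts open DNA and the resulting fragments pile up where chromatin is accessible. The study compared 3 libraries from cells with silenced DLGAP1-AS2, a long non-coding RNA, with 3 libraries from control cells of the same line, and the sample titles name the groups ASO and NC. The labels do not say whether the libraries of a group came from separate cultures, so every p-value measures the spread between these libraries only. They give no RNA measurement, so peaks show accessibility and not expression.

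The epithelial-mesenchymal transition is a change of cell state in which epithelial cells lose their tight contacts and gain motility. The zinc-finger and helix-loop-helix factors of the ZEB, SNAI and TWIST families bind E-box sequences and repress epithelial genes such as CDH1, which encodes E-cadherin. Mesenchymal cells carry N-cadherin, encoded by CDH2, and the intermediate filament protein vimentin, encoded by VIM. In lung carcinoma, E-cadherin and the adhesion molecule EPCAM are used as epithelial markers and vimentin as a mesenchymal one.

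Promoter sequence from RefSeq (GRCh38.p14, from 250 bases before to 50 bases after a start) was matched for 5 members, with 12 listed starts between them. SNAI1, SNAI2, TWIST1, CDH1 and EPCAM were not matched. The windows below are shown because the peaks covered some of them and left others uncovered, and each reads 5′ to 3′ on the gene's strand. Capitals mark CAGGTG on either strand, the E-box form bound by ZEB and SNAI proteins.
ZEB1, start at 31319216 (chr10:31318966-31319265, plus strand): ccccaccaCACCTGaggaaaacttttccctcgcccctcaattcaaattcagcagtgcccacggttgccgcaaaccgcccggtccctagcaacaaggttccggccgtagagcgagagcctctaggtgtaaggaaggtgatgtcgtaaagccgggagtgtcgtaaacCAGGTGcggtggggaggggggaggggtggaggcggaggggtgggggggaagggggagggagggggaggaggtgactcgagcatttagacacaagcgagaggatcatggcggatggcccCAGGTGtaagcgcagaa
ZEB2 (chr2:144520070-144520369, minus strand): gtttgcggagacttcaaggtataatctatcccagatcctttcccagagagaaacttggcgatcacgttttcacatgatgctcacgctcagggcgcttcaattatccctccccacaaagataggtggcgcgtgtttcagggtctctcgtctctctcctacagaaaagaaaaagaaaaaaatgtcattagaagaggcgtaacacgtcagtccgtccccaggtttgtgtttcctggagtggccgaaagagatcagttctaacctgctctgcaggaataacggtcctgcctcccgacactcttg
TWIST2 (chr2:238847835-238848134, plus strand): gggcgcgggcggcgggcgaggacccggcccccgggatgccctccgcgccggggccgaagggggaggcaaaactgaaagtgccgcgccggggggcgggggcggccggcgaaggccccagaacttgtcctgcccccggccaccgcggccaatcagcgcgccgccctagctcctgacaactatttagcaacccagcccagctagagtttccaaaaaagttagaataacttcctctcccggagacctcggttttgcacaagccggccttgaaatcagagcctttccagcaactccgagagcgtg
VIM (chr10:17227991-17228290, plus strand): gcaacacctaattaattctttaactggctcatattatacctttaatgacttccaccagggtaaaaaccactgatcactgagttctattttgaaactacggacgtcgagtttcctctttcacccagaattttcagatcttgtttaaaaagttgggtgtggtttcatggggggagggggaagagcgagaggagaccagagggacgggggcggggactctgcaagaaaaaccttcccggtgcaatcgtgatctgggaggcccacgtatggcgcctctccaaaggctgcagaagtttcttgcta
CDH2, outer start (chr18:28177081-28177380, minus strand): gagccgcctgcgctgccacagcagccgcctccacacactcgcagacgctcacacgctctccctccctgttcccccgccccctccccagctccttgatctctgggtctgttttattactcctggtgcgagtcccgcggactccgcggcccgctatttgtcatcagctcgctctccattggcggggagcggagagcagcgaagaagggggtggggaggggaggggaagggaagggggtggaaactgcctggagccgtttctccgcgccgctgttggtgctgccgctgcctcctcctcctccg
CDH2, inner start (chr18:28036592-28036891, minus strand): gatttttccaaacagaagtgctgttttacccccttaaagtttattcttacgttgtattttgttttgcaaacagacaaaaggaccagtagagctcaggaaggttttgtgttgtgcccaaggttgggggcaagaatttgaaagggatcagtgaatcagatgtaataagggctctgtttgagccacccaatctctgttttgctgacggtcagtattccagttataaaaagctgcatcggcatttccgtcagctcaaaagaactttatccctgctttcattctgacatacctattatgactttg
The ZEB1 window of the start at 31319216 held 3 CAGGTG matches, whose first bases lay at −242, −85 and 33 from the start. Peaks covered all 300 of its bases in 5 libraries and 189 bases in silenced replicate 3. It is the only ZEB1 window shown and the one with the most matches. The ZEB1 windows at 31318417, 31318818 and 31319768 were covered at least in part in most libraries. The window at 31320554 was covered only in silenced replicate 1 (254 bases) and that at 31321201 only in control replicate 3 (76 bases). Peaks covered 0 bases of the last, at 31321660, in every library. The window of the first ZEB1 start, at 31318417, held 1 match, at −57, and the remaining ZEB1 windows held none. CAGGTG occurred in 20.6% of the 35116 promoter windows in the table, and the ZEB2, TWIST2, VIM and CDH2 windows had no match. A match describes letters and was not tested as a binding site. GGAATG, the motif of the TEAD factors that YAP binds, occurred in 14.0% of all windows on either strand and among the members only in the window of the first ZEB1 start. The AP-1 motif TGANTCA occurred in 7.71% of all windows and among the members only at the inner CDH2 start. CAGGTG is itself a case of the general E-box CANNTG, which 68.7% of all windows held.

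The outer CDH2 window had a GC content of 67.0% and the inner one of 40.7%, against a median of 58.7% over all windows. Peaks covered 293 to 300 bases of the outer window in every library and 0 bases of the inner window in every library. The ZEB2 window was covered over 202 to 300 bases and the TWIST2 window over 224 to 300 bases. The VIM window was covered over 0 bases in all 6 libraries, because the VIM peak began 115 to 155 bp beyond the listed start.

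Each library was deposited as its own list of peaks, with 91346 to 170882 peaks on the chromosomes. The read numbers are not given, and the background coverage computed from the lists was lowest in silenced replicate 3 (0.237) and highest in control replicate 2 (0.464), against 0.369 to 0.402 in the other 4. For each peak the authors gave a height (the pileup of fragments), a fold enrichment over the local background and a false discovery rate (FDR). These are the authors' own values and were used to describe and rank peaks within a list. Of the defining markers of squamous cells, SOX2 had a peak within 1 kb of its start in all 6 libraries and TP63, KRT14, DSG3 and PKP1 had one in 1 library each. KRT5 and KRT6A had none in any library, so most of these markers were absent at their starts. Start peaks in all 6 libraries stood at 60.2% of all protein-coding genes, at 3 of 4 lung adenocarcinoma genes (NKX2-1, NAPSA and SFTPC), at 3 of 5 fibroblast genes (PDGFRA, COL1A1 and COL1A2) and at 0 of 4 leukocyte genes, PTPRC being without a peak in any library. These counts rest on few genes, the first 2 lie near the share of all genes, and the part of such cell types in the member values was not tested. KRT14, SFTPC, COL1A1 and COL1A2 had no listed start. For them a peak near either end of the span counted, so their calls need not lie at the start.

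Among the members, the starts of the mesenchymal genes VIM and CDH2 and of most transition factors were accessible. Those of the epithelial genes CDH1 and EPCAM had few and weak calls. The longer lists given below did not follow this contrast. There, 8 of 20 epithelial and 4 of 15 mesenchymal genes had a start peak in all 6 libraries. ZEB1, ZEB2, SNAI2, TWIST1, TWIST2, VIM and CDH2 each had 1 region within 1 kb of a start that was called in all 6 libraries, so 7 members were open in both groups. SNAI1 was called at its start in 5 libraries, EPCAM in 3 and CDH1 in 1. Counting a peak near either end of the span where the table gives no start, the rule applied to all genes, 8 members were called in all 6 libraries. Over all protein-coding genes 60.2% were called in all 6 and 17.8% in none. The members' count is a description beside that share and is not called particular to them.

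**Figure D1:**
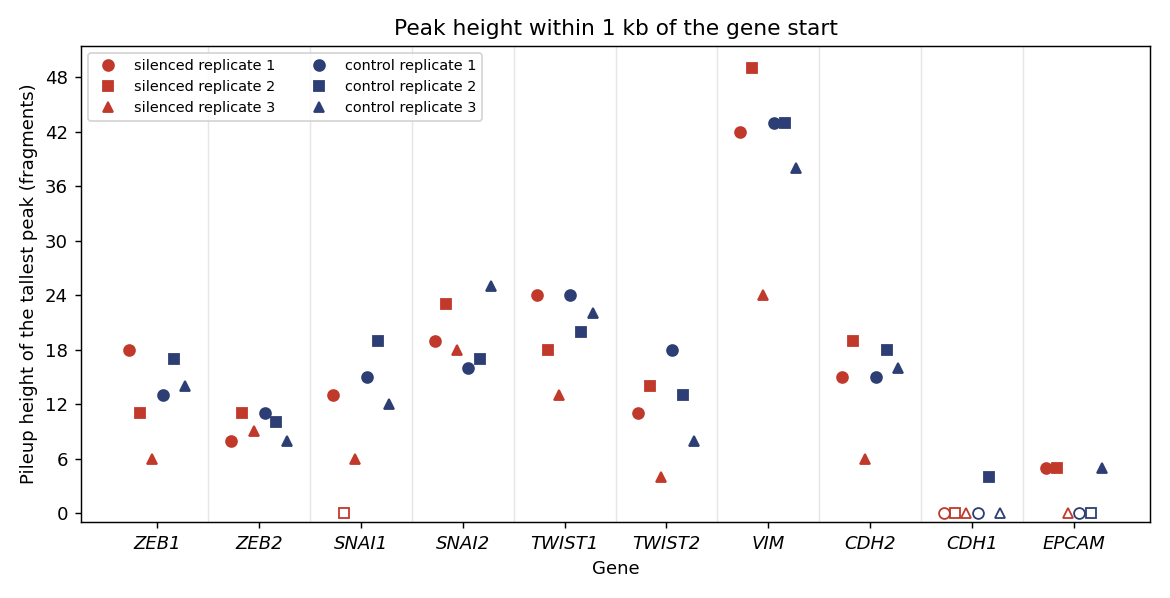
Height in fragments (vertical axis) of the tallest peak within 1 kb of the start of each gene (horizontal axis), with 1 point per library, silenced in red and control in blue, and open symbols at 0 where no peak was called. VIM has the tallest peak in every library (24 to 49), and CDH1 has a peak of height 4 in control replicate 2 alone.

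The height of start peaks set VIM apart from the other members. The VIM peak measured 42, 49 and 24 in the silenced and 43, 43 and 38 in the control libraries, each in the order of replicates 1, 2 and 3, the tallest of the 10 members in each library. By median over the 6 libraries VIM (42.5) was followed by TWIST1 (21.0), SNAI2 (18.5), CDH2 (15.5), ZEB1 (13.5), TWIST2 (12) and ZEB2 (9.5). Neighbours in this order below VIM overlapped in their ranges, while TWIST1 (13 to 24) and SNAI2 (16 to 25) lay above ZEB2 (8 to 11) with no overlap. Among the 12061 protein-coding genes called in all 6 libraries, whose median height was 18 to 43 per library, VIM lay between percentiles 48.6 and 61.0. The percentiles were 15.2 to 33.7 for TWIST1, 12.6 to 47.6 for SNAI2, 8.74 to 16.5 for CDH2, 5.75 to 19.9 for ZEB1, 2.87 to 20.4 for ZEB2 and 2.45 to 17.4 for TWIST2. TWIST1, CDH2, ZEB1, ZEB2 and TWIST2 thus had lower start peaks than most genes with an open start in each library, and SNAI2 reached the median height of 18 in silenced replicate 3.

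**Figure D2:**
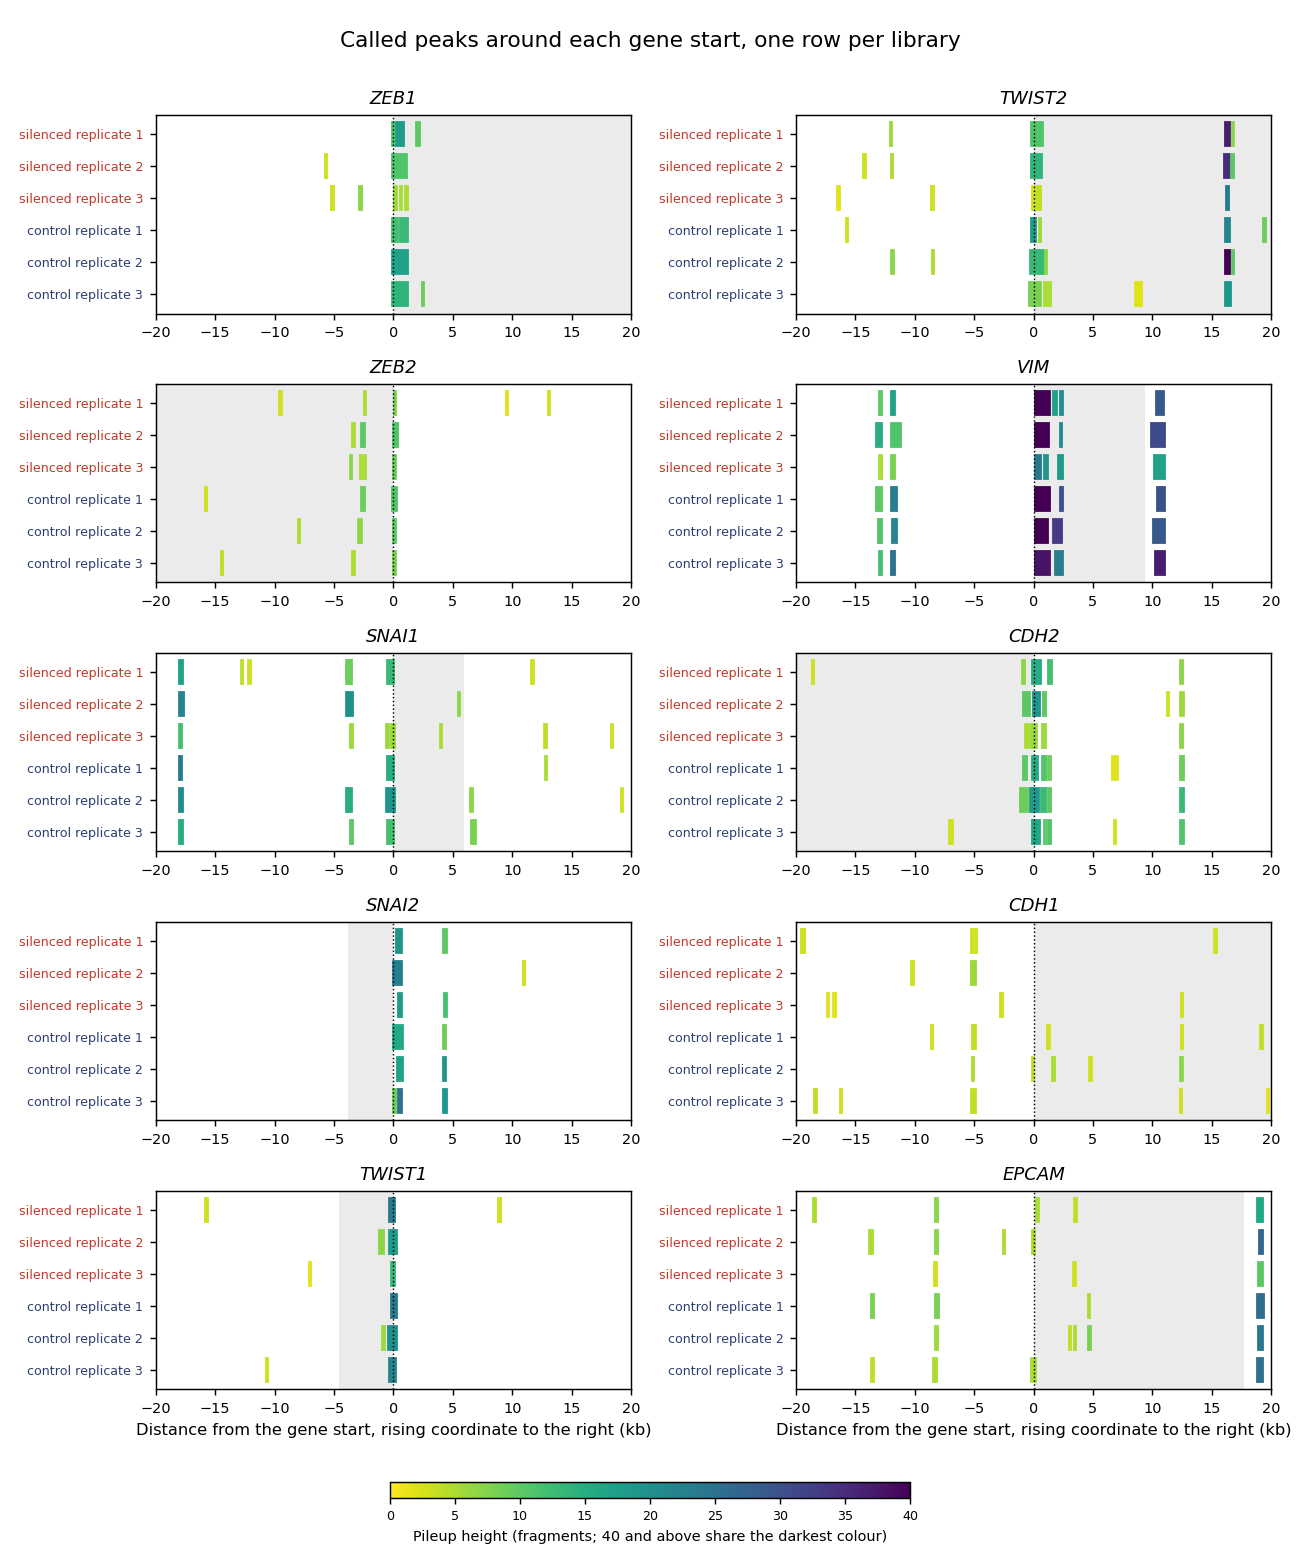
Peaks of the 6 libraries (1 row each, red labels silenced and blue labels control) within 20 kb of the start of each gene, with distance in kb on the horizontal axis, the gene span in grey and peak height as colour. A column of peaks stands at the start of ZEB1, ZEB2, SNAI2, TWIST1, TWIST2, VIM and CDH2, while the CDH1 start carries a peak in 1 library and the EPCAM start weak peaks in 3.

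ZEB1 and ZEB2 encode zinc-finger repressors of epithelial genes. The ZEB1 start region (chr10:31318271-31319665) stood 18, 11 and 6 high in the silenced libraries, in the same order, against 13, 17 and 14 in the control ones. The highest and the lowest value were both in silenced libraries, and the groups overlapped. The region spans the first 3 listed ZEB1 starts, and the divergent lncRNA gene ZEB1-AS1 overlaps it. The ZEB2 start region (chr2:144520037-144520512) had heights of 8, 11 and 9 in silenced and 11, 10 and 8 in control libraries, again overlapping, and lies over ZEB2-AS1 as well. A second ZEB2 region within the gene, with its middle at −2.63 kb from the upper end, was called in all silenced libraries at 5, 10 and 5 and in control replicates 1 and 2 at 9 and 7. The rest of these long genes held few repeated calls. Of 34 regions in the ZEB1 window 28 were called in a single library, and of 25 in the ZEB2 window 21.

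SNAI1 and SNAI2 encode the Snail and Slug repressors. The SNAI1 start, at the lower end of its span (chr20:49982381-49983149), carried peaks 13 and 6 high in silenced replicates 1 and 3 and 15, 19 and 12 high in the control libraries. Silenced replicate 2 had no peak there, and its nearest lay 3412 bp away. That peak belonged to a region upstream (chr20:49978986-49979608) with heights of 9, 20 and 6 in silenced libraries, no call in control replicate 1, and 15 and 10 in the remaining controls. In the SNAI1 window the only region called in all 6 libraries lay farther out, with its middle at −17.8 kb from the lower end (chr20:49964900-49965386), with heights of 17, 22 and 12 in silenced and 24, 21 and 15 in control libraries. SNAI2 had the fewest regions of all members, 4 in its window, and its start region at the upper end of the span (chr8:48921366-48922198) had heights of 19, 23 and 18 in silenced and 16, 17 and 25 in control libraries. The lncRNA gene LOC107986942 begins or ends within 1 kb of the same region. A second SNAI2 region 4.34 kb beyond that end was 10 and 12 high in silenced replicates 1 and 3, not called in silenced replicate 2, and 9, 19 and 19 high in the control libraries.

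TWIST1 and TWIST2 encode helix-loop-helix factors that act in mesoderm and in the transition. The TWIST1 start, at the upper end of its span (chr7:19117163-19117977), had heights of 24, 18 and 13 in silenced and 24, 20 and 22 in control libraries. It was the only shared region among 6 in that window. The TWIST2 start (chr2:238847702-238848955) was lower, at 11, 14 and 4 in silenced and 18, 13 and 8 in control libraries. Its tallest region lay inside the gene, 16.3 kb from the start (chr2:238864089-238864666), with 37, 35 and 24 in silenced and 22, 41 and 19 in control libraries. Control replicate 2 had the tallest of these 6 peaks and the other control libraries the lowest, so the groups overlapped. In every library this inner peak was taller than the one at the TWIST2 start. The remaining shared TWIST2 region, at 21.8 kb, had heights of 7 to 14.

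VIM had the highest median peak density of the 10 windows, although SNAI1 ranged more widely, from 6.53 to 17.4 peaks per 100 kb. The VIM window held 7 regions, of which 6 were called in all libraries, and its 12.2 to 16.2 peaks per 100 kb compare with medians of 5.93 to 8.69 over protein-coding windows. The start region (chr10:17228356-17229655), whose heights are given above, also lies over VIM-AS1. A region past the end of the gene, at 10.5 kb from the start (chr10:17238122-17239323), had heights of 29, 31 and 17 in silenced and 30, 29 and 37 in control libraries. An upstream region at −11.6 kb (chr10:17216214-17217099), within VIM-AS1, had 17, 11 and 8 in silenced and 23, 22 and 25 in control libraries. A region inside the gene (chr10:17229902-17230742) had 20, 21 and 18 in silenced and 30, 33 and 23 in control libraries. The heights of these last 2 regions did not overlap between the groups. Over all regions called in all 6 libraries, 8.79% had heights that did not overlap with silenced below control and 0.161% the reverse, and heights are not scaled for depth. For the region inside the gene, the comparison by rank described below gave a difference of 0.02 ± 0.52 (SE, limma adjusted p = 1). The other 2 shared VIM regions had middles at −13.0 kb (heights 5 to 15) and 21.8 kb (heights 3 to 8) from the start. The fold enrichment at the VIM start was only 6.06 to 7.58 in spite of the height, since the local background implied by height and fold was 9.71 to 15.0 times the lowest background of the library. By height the VIM start ranked in the top 15.5% to 19.9% of the shared regions of each library, and by fold enrichment in the top 37.3% to 73.3%.

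CDH2, which encodes N-cadherin, was open at its outer start (chr18:28176862-28177747), with heights of 15, 19 and 6 in silenced and 15, 18 and 16 in control libraries. The lowest value again came from silenced replicate 3, the library of lowest background coverage, and the part of coverage in it was not tested. Flanking the start, a region called in 5 libraries lay on the gene side (heights 5 to 10) and another called in 5 on the upstream side (6 to 13). Around the inner start no library had a peak within 1 kb. The nearest stood 1583 to 139378 bp away. A region 12.5 kb upstream of the outer start (chr18:28189429-28189762), in no annotated gene, had heights of 7, 6 and 7 in silenced and 9, 13 and 11 in control libraries. These heights did not overlap, with silenced below control as at 8.79% of all shared regions.

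CDH1, the E-cadherin gene, had no peak at its start in 5 of the 6 libraries. In control replicate 2 a peak of height 4 (chr16:68737135-68737334, fold enrichment 2.87, FDR 0.129) covered the lower end of the span, where CDH1 begins. In the other libraries the nearest peak to that end lay 1158 to 4884 bp away and had a height of 3 to 6. A single region inside CDH1 was shared by all libraries, at 63.2 kb from the start (chr16:68800276-68800647), with heights of 5, 10 and 5 in silenced and 11, 5 and 12 in control libraries. The strongest shared region of the window (chr16:68843159-68844367; 27, 36 and 12 in silenced, 28, 39 and 24 in control libraries) lies at an end of the neighbouring gene TANGO6, 8.23 kb past CDH1. Of the 42 regions in this window, 33 were called in a single library.

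EPCAM likewise had a weak start and a taller peak in its flank. Peaks of height 5 stood within 1 kb of its start, the lower end of the span, in silenced replicates 1 and 2 and in control replicate 3, with an FDR of 0.0379, 0.00475 and 0.00917. The other 3 libraries had none. A region 1.37 kb past the upper end of the gene (chr2:47388121-47388665) was shared, with heights of 16, 27 and 10 in silenced and 26, 24 and 25 in control libraries. A region at −8.23 kb from the start was shared at heights of 3 to 8. In every library the flanking peak was taller than any at the EPCAM start, as the peak at TANGO6 was taller than any at the CDH1 start.

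Whether silencing of DLGAP1-AS2 changed these loci was asked first by the number of peaks per window. The 10 windows together held 81, 76 and 60 peaks in the silenced and 78, 48 and 75 in the control libraries. On average a silenced library had 72.3 ± 11.0 peaks (SD, n = 3) and a control library 67.0 ± 16.5 (SD, n = 3), which differ by less than the spread. The lowest sum was in control replicate 2, which also had the shortest list, and without it the difference of 5.33 peaks became −4.17. ZEB2 had the largest difference, with 11, 8 and 6 peaks in silenced and 5, 3 and 6 among the controls (exact permutation p = 0.2, two-sided, adjusted p = 1 over all protein-coding windows). VIM followed in p-value, with 8, 7 and 7 against 7, 6 and 6 (exact permutation p = 0.3, adjusted p = 1). The other 8 members had an exact permutation p of 0.6 to 1, where 3 libraries against 3 cannot go below 0.1. Of the 10 windows, 0 had unscaled peak numbers that did not overlap between groups. Over all 20037 windows the shares were 1.56% higher in silenced and 1.67% higher in control libraries. When each number was divided by the length of its library's list, ZEB2 had the lowest possible exact permutation p of 0.1. Its scaled numbers thus did not overlap, with silenced above control. The rest of the members had an exact permutation p of 0.4 to 0.8 on this scale. ZEB2 is 1 of 10 members, and no share over all windows was computed for the scaled numbers.

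**Figure D3:**
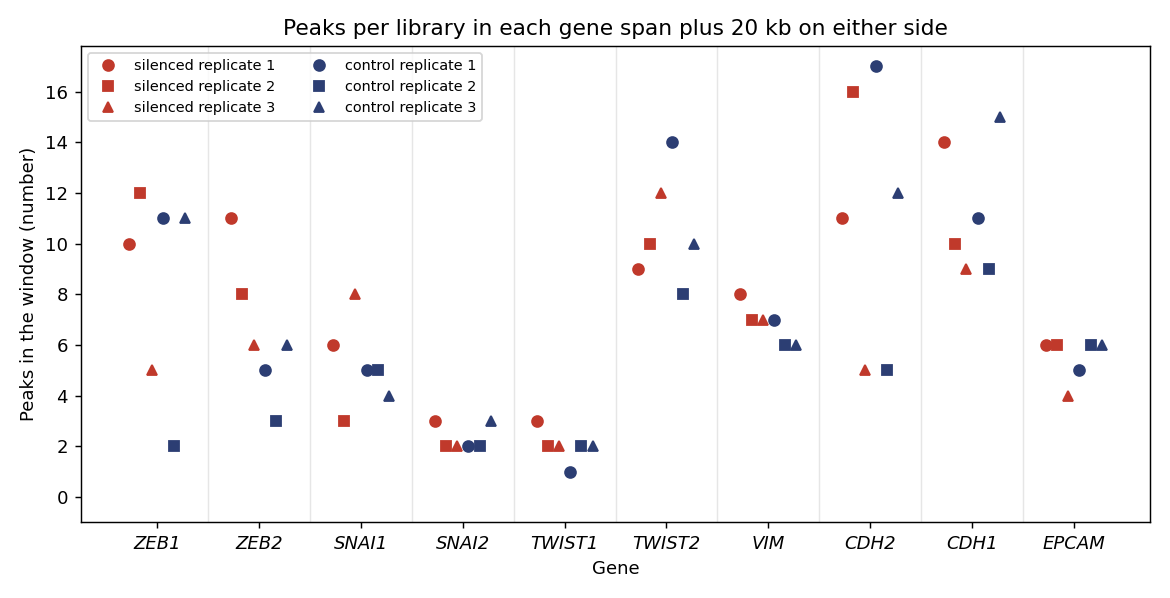
Number of peaks (vertical axis) in the window of each gene (horizontal axis), 1 point per library, silenced in red and control in blue. The groups meet or overlap at every gene, and CDH2 and ZEB1 show the widest spread, from 5 to 17 and from 2 to 12 peaks.

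Regions called in 1 group only were looked for next. Merging the 6 lists gave 216 regions in the windows, with 70.4% found by 1 library alone and 21 (9.72%) shared by all 6, beside 74.1% and 7.35% over all 507440 regions. A region that every library of a group had and the opposite group lacked occurred 0 times among the 216, where over all regions 0.130% were found only in silenced and 0.200% in control libraries alone. At these shares fewer than 1 such region would be found in 216, so the count of 0 says little. At an FDR of at most 1e-05 the region upstream of CDH2 was called in all 3 control libraries (FDR 6.61e-09, 1.39e-12 and 2.83e-11) and in no silenced one. That was 1 of 29 window regions at this limit, where 1.01% of 50350 regions were found in the control libraries alone and 0.0993% in the silenced ones alone. In the full lists it was called in silenced libraries too, with an FDR of 1.28e-05, 7.35e-05 and 2.72e-05, so the values lie just outside that limit.

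The strength of the 21 shared regions was compared by rank. Within each library the fold enrichment was ranked among the 37284 regions called in all 6 lists, each rank was expressed as a normal score, and limma was fitted over all of them. Of these, 0 regions passed a Benjamini-Hochberg adjusted p of 0.05 (0.00%), including 0 of the 21. At an unadjusted p under 0.05, limma called 1.98% of all regions higher and 2.70% lower in silenced cells, 1746 in all, and 1 of the 21. That region was the inner TWIST2 region, with scores of 0.83, 0.40 and 1.03 in silenced and 0.01, 0.74 and −0.36 in control libraries, a difference of 0.62 ± 0.29 (SE, limma adjusted p = 0.963). A share of 1 in 21 is near the background. Over the 21 regions the difference ran from −0.65 to 0.62 with a median of 0.02, 12 higher and 9 lower in silenced, beside a median of 0.01 over all regions.

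**Figure D4:**
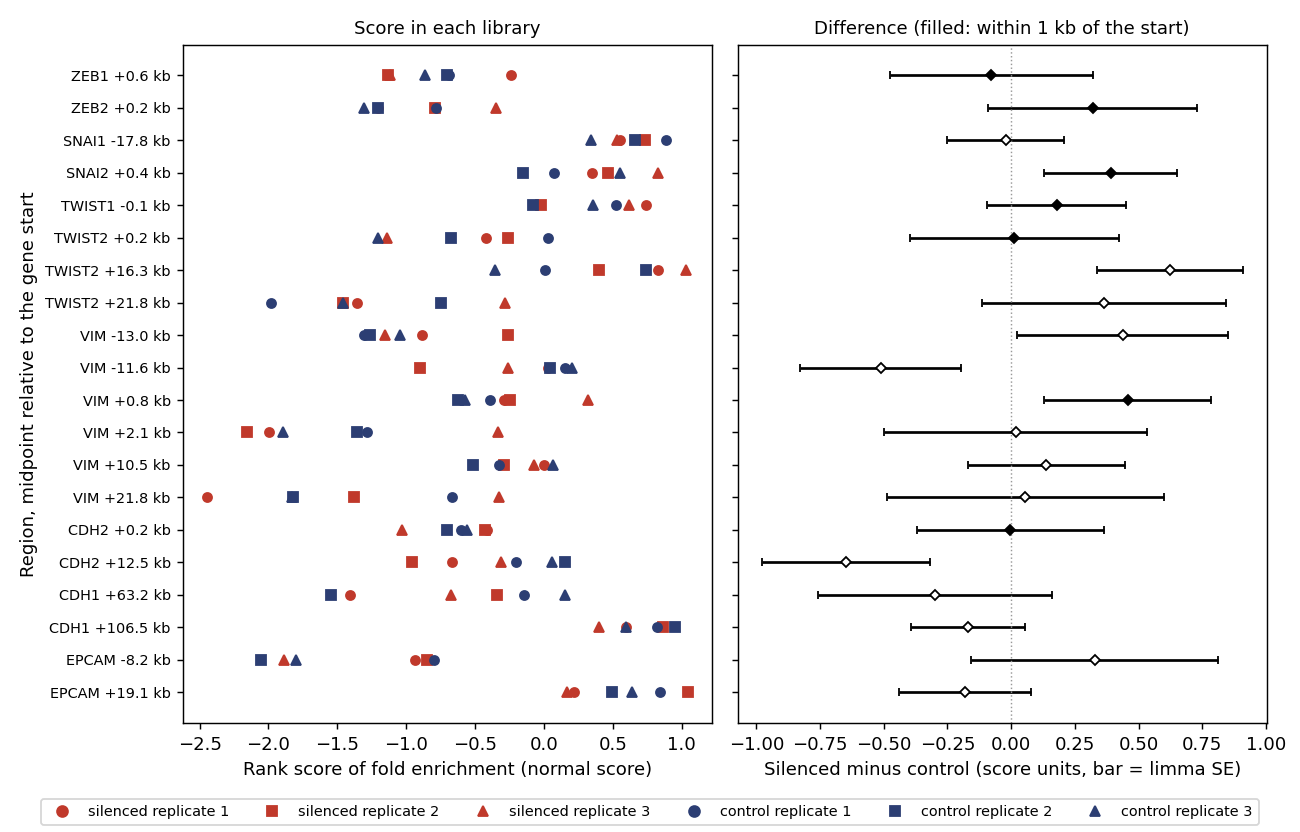
Rank score of fold enrichment in each library (left, normal-score units, silenced in red and control in blue) and silenced minus control difference with its limma standard error (right, score units) for 20 of the shared regions, named by gene and distance of the midpoint from the gene start along the rising coordinate. The inner TWIST2 region has the highest difference (0.62) and the region upstream of CDH2 the lowest (−0.65).

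Scores that did not overlap between the groups were found at 3 of the 21 regions, chosen here after their values were seen. Over all shared regions 5.39% did not overlap with higher and 4.78% with lower scores in silenced libraries. The region upstream of CDH2 scored −0.67, −0.96 and −0.32 in silenced and −0.21, 0.16 and 0.06 in control libraries, a difference of −0.65 ± 0.33 (SE, limma adjusted p = 0.963). The region upstream of VIM scored 0.03, −0.90 and −0.26 in silenced and 0.15, 0.04 and 0.21 in control libraries (difference −0.51 ± 0.32, SE, limma adjusted p = 0.963). Ranked by height, its difference was −0.56 ± 0.23 (SE, limma adjusted p = 0.971). The VIM start scored −0.29, −0.25 and 0.32 in silenced and −0.39, −0.62 and −0.57 in control libraries (difference 0.46 ± 0.33, SE, limma adjusted p = 0.963). Its heights overlapped, as given above, and ranked by height the difference was 0.11 ± 0.14 (SE).

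At the starts of the other open members no difference passed the test. It was 0.39 ± 0.26 (SE) at SNAI2, 0.32 ± 0.41 at ZEB2, 0.18 ± 0.27 at TWIST1, 0.01 ± 0.41 at TWIST2, −0.08 ± 0.40 at ZEB1 and 0.00 ± 0.37 at CDH2, each with a limma adjusted p of 0.963 to 1. Of the strong shared regions away from member starts, 2 are given here, which differed by −0.17 ± 0.22 at TANGO6 and −0.02 ± 0.23 below SNAI1. These intervals are wide, so shifts of the size of their errors could not be seen with this number of libraries.

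The wider programme was read from 4 lists of genes of the transition, each gene of which was found in the gene table. For genes without a listed start, KRT18 among them, a peak near either end of the span counted as a start peak. Of 20 epithelial genes, 8 had a start peak in all 6 libraries, among them the keratin genes KRT8 and KRT18, DSP for desmoplakin and TJP1 for a tight-junction protein, and 5 had none (CLDN3, CRB3, GRHL2, RAB25 and ST14). Of 15 mesenchymal genes, 4 were called in all 6 (FN1, ACTA2 and S100A4 among them) and 5 in none (LOX, SPARC, THY1, POSTN and CDH11). Of 17 other regulators, 13 were called in all 6, including the TGF-beta receptors TGFBR1 and TGFBR2 and the factors SMAD2, SMAD3 and SMAD4, and 2 in none (TGFB2 and LEF1). Both the epithelial and the mesenchymal list thus lay below the 60.2% of all protein-coding genes.

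The microRNAs of the miR-200 family repress ZEB1 and ZEB2 and are themselves repressed by them. MIR200A, MIR200B and MIR429 had a peak within 1 kb in 1 silenced library and MIR200C in none. MIR141 had one in all 6 libraries, by the rule of either span end. Whether that peak belongs to the microRNA or to a neighbouring gene such as PHB2 was not tested. Among the genes of these 4 lists, 0 had a start that every library of a group called and the opposite group lacked, where 0.0649% of all protein-coding genes had such a start in silenced and 0.210% in control libraries alone.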

How the data were processed

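Per the labels' protocols, nuclei were transposed with a library kit and paired ends sequenced. Per the submitters' processing notes, Trimmomatic 0.36, Bowtie2 2.2.6, Picard 2.8.2, MACS2 2.1.1 and bedtools 2.25.0 and the build GRCh38 were used; their settings, including any shift of read ends, are not given in the sources used here. The authors deposited 1 peak list per library with interval, fold enrichment (a ratio), p-value, FDR (an adjusted p-value) and pileup signal, per the file headers. No deposited p-value was above 0.00987, and no interval was shorter than 200 bp.

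Peaks on scaffolds were left out. Gene spans came from a RefSeq table (GRCh38.p14). Starts came from the promoter table, and both span ends stood in where a gene had no entry; for single members the end at which the gene begins was used. Lists were merged at an overlap of 1 bp. Background coverage was the lowest (height + 1) / fold − 1 of a list. Groups were compared with exact permutation tests and with limma 3.58.1 (R 4.3.3) on rank scores. The limma fit was also run on simulated scores, with a shift much larger than any member difference. That run does not show whether shifts of the members' size would be found. The members and gene lists were chosen with earlier results of these data known. All 10 members were named, with regions at their starts, the 3 strongest other shared regions (1 of them not reported here), and regions at an unadjusted limma p under 0.05; other regions were named after their values were seen. Some list genes are not reported here. Alternatives were FDR, height and list-size filters, scaling to list size, other windows and distances, ranking by p-value or height, pairing, and leaving out libraries.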

Additional observations from a re-analysis of the deposited data

How the results depend on the processing

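Read numbers are unknown and silenced replicate 3 has the lowest background coverage. Depth may therefore limit these results, and its part was not tested. The rank comparison gave 0 regions at an adjusted p of 0.05 under each of its alternatives. The lowest limma adjusted p was 0.423, without silenced replicate 2. At an unadjusted p under 0.05, limma called from 854 of 19371 regions (FDR of at most 1e-05) to 2379 of 37284 (without silenced replicate 2). As shares of the regions tested, the alternatives ran from 3.93% to 6.38%.

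The summed difference in peaks (silenced minus control, 5.33) was −5.33 for peaks up to an FDR of 1e-05, −0.667 below an FDR of 0.05, −4.67 from height 4 upward, 0.667 with equal list sizes and −0.333 without flanks. Leaving out 1 library gave −4.17 (without control replicate 2) to 11.5. By gene, it reversed up to an FDR of 1e-05 for ZEB1 (−1.33), SNAI1 (−0.667) and VIM (−1.0). CDH2 reversed to 0.667 below an FDR of 0.05 and with equal list sizes, and to 0.333 from height 4 upward and without flanks. With 50 kb flanks TWIST2 became 1.33 and EPCAM 1.67. Leave-one-out ranges were −2.17 to 1.0 for CDH1, −3.83 to 2.17 for CDH2, −0.667 to 0.333 for EPCAM, −0.167 to 2.33 for SNAI1, −1.67 to 1.33 for TWIST2 and −2.0 to 3.0 for ZEB1. The start counts that follow took either span end where no start was listed. By that rule the difference in members with a start peak (0.333) was −1.67 at an FDR of at most 1e-05 and for peaks over the start base. It was 0.0 within 5 kb, and −0.167 (without silenced replicate 2) to 0.833 in leave-one-out fits. Members called at a start in every library numbered 3 at an FDR of at most 1e-05 (SNAI2, TWIST1 and VIM). They numbered 3 for peaks over the start base (TWIST1, TWIST2 and CDH2), 10 within 5 kb, and 8 in every leave-one-out fit. With only the end where each gene begins, 9, 8 and 8 members were called in silenced and 8, 9 and 9 in control libraries. The difference then had the opposite sign. Regions of one group only numbered 1 of 29 up to an FDR of 1e-05 (3.45%, beside 1.11% of all regions) and 0 to 5 in leave-one-out fits, at most 2.39% (without control replicate 2) beside 1.04% to 1.58% of all regions; fewer libraries must then meet the condition. The cause was not tested.

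Rank differences changed sign under some setting at 12 of the 21 shared regions. The TWIST2 start gave −0.0091 by p-value, −0.21 by height, −0.0165 below an FDR of 0.05 and −0.0528 from height 4 upward. The region below SNAI1 gave 0.0434 by p-value and 0.0704 by height. The region inside VIM (0.0184) gave −0.292 by p-value, −0.132 by height, −0.408 below an FDR of 0.05, −0.259 from height 4 upward and −0.227 with equal list sizes. Leave-one-out ranges were −0.28 to 0.335 for the TWIST2 start, −0.166 to 0.106 below SNAI1, −0.562 to 0.348 inside VIM, −0.371 to 0.0726 for the ZEB1 start, −0.108 to 0.2 for the CDH2 start, 0.0065 to 0.413 for the TWIST1 start, and −0.294 to −0.06 at TANGO6. Leaving out silenced replicate 3 and control replicate 2 together, chosen after the data were seen, gave 2.0 summed peaks, 0.5 for EPCAM and −2.5 for TWIST2, and rank differences of −0.0786 at TWIST1, 0.0902 at ZEB1, 0.0217 at TANGO6, 0.158 at CDH2, −0.483 inside VIM and 0.0295 below SNAI1. Members called at a start in every library, counting either end where no start was listed, stayed at 8.

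Pairing by replicate number (replicate block) left the mean differences as they were (5.33 summed peaks) and gave 0 regions by rank. Same-numbered libraries did not deviate together (correlations of −0.00196, 0.00238 and −0.00829 across regions).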
